A study of Mus musculus with 3 samples.

Results

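The immediate early and AP-1 genes are 34 mouse genes taken by symbol from the 32285 genes listed in the count matrices, and all 34 were found in all 3 libraries. The libraries were 10x Genomics single-cell RNA libraries of bone marrow from male mice aged 6 weeks. In 2 of them the genotype was labelled Ep300-Znf384-V5-HA, a tagged fusion of the acetyltransferase gene Ep300 with the zinc finger gene Znf384 (fusion libraries 1 and 2), and 1 library was labelled as wild type. Femur and tibia marrow was freed of red cells, and each library pooled 5000 live unselected cells with 5000 live lineage-negative cells, so shares of cells are those of this mixture. The labels give neither the strain, the promoter or driver of the fusion, nor whether the libraries came from separate animals. With 1 wild-type library, genotype and library cannot be told apart. The p-values and SEs rest on the spread between the fusion samples, which may be technical. They do not measure each gene's own spread alone, because edgeR draws it toward that of other genes. A gene can therefore be called although its own fusion values differ widely.

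Immediate early genes are transcribed within minutes of a stimulus without new protein synthesis, because the factors that switch them on, such as serum response factor with its Elk partners and the cyclic AMP response element binding protein, are already present and need only be phosphorylated by kinases such as ERK and p38. Fos and Jun proteins pair into the AP-1 transcription factor, while Egr, Nr4a and Klf genes encode further DNA-binding factors. The response is brief because it induces its own brakes: dual-specificity phosphatases of the Dusp family inactivate the kinases, I kappa B proteins hold NF-kB in the cytoplasm or tune it, and Zfp36 proteins bind AU-rich elements in short-lived mRNAs and speed their decay. In bone marrow, AP-1 and Klf factors are also known parts of monocyte, granulocyte and lymphocyte programmes.

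After filtering, 7313, 6895 and 7431 cells were analysed in fusion library 1, fusion library 2 and the wild-type library, with median depths of 7360, 10008 and 7430 UMIs (unique molecules counted) and 2.66%, 2.79% and 2.46% mitochondrial UMIs per cell. Any pair of libraries shared between 19 and 23 barcode sequences. Clusters were named from marker lists, without using the 34 genes to cluster, and 12 classes with at least 50 cells in every library were tested. The labelled tissue was met by these markers, with erythroid, granulocytic, monocytic, lymphoid and stem-like cells in every library. Class shares differed: erythroid progenitors held 58.4%, 53.6% and 27.7% of kept UMIs in fusion 1, fusion 2 and wild type, and granulocyte-monocyte progenitors 12.0%, 14.8% and 28.2%. Mature neutrophils of the fusion and wild-type libraries fell mostly into different clusters, with 1306 of 1308 wild-type cells in a cluster that held 7 and 13 cells of the fusion libraries.

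Fos fell in 7 of 12 classes and Fosb in 5 of the 11 in which it was tested, while a small group of other members rose. Both Fos and Fosb were lower in stem-like cells, granulocyte-monocyte progenitors and basophils, Klf4 was lower in monocytes and 3 other classes, and the feedback gene Zfp36 was lower in basophils. Klf2, Zfp36l1 and Gadd45b were higher in mature neutrophils, Zfp36l1 also in monocytes, and Klf2 also in basophils, monocytes, pro-B cells and the T, NK and innate lymphoid class. The UMI counts of each library and class were summed and tested with edgeR's quasi-likelihood test, and a gene is said to have fallen or risen where its Benjamini-Hochberg adjusted p over all genes of the class was under 0.05. Of 408 member and class pairs, 332 had enough counts to be tested: 32 were lower and 10 higher in fusion, against 1.83% lower and 0.795% higher of all 116539 gene and class pairs. Both fusion libraries were below wild type in 178 member pairs (35.1% of all pairs were) and above it in 77 (35.4% of all pairs). The calls fell on 19 members: 14 only fell, 4 only rose, and Klf2 did both. The other 15 members were called in no class. DESeq2, used as an alternative test, called 6 pairs lower and 2 higher (0.398% and 0.206% of all pairs), 5 of them among the 42. With DESeq2 set aside, 10 of the 42 pairs were called under every alternative that tested them, and DESeq2 called 3 of these 10 as well. No Fos pair was among the 10, and Fosb was among them in basophils only. The other Fos and Fosb calls were each lost in several alternatives. Fos in immature neutrophils and Fosb in pre-B to mature B cells also changed sign in some.

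**Figure D1:**
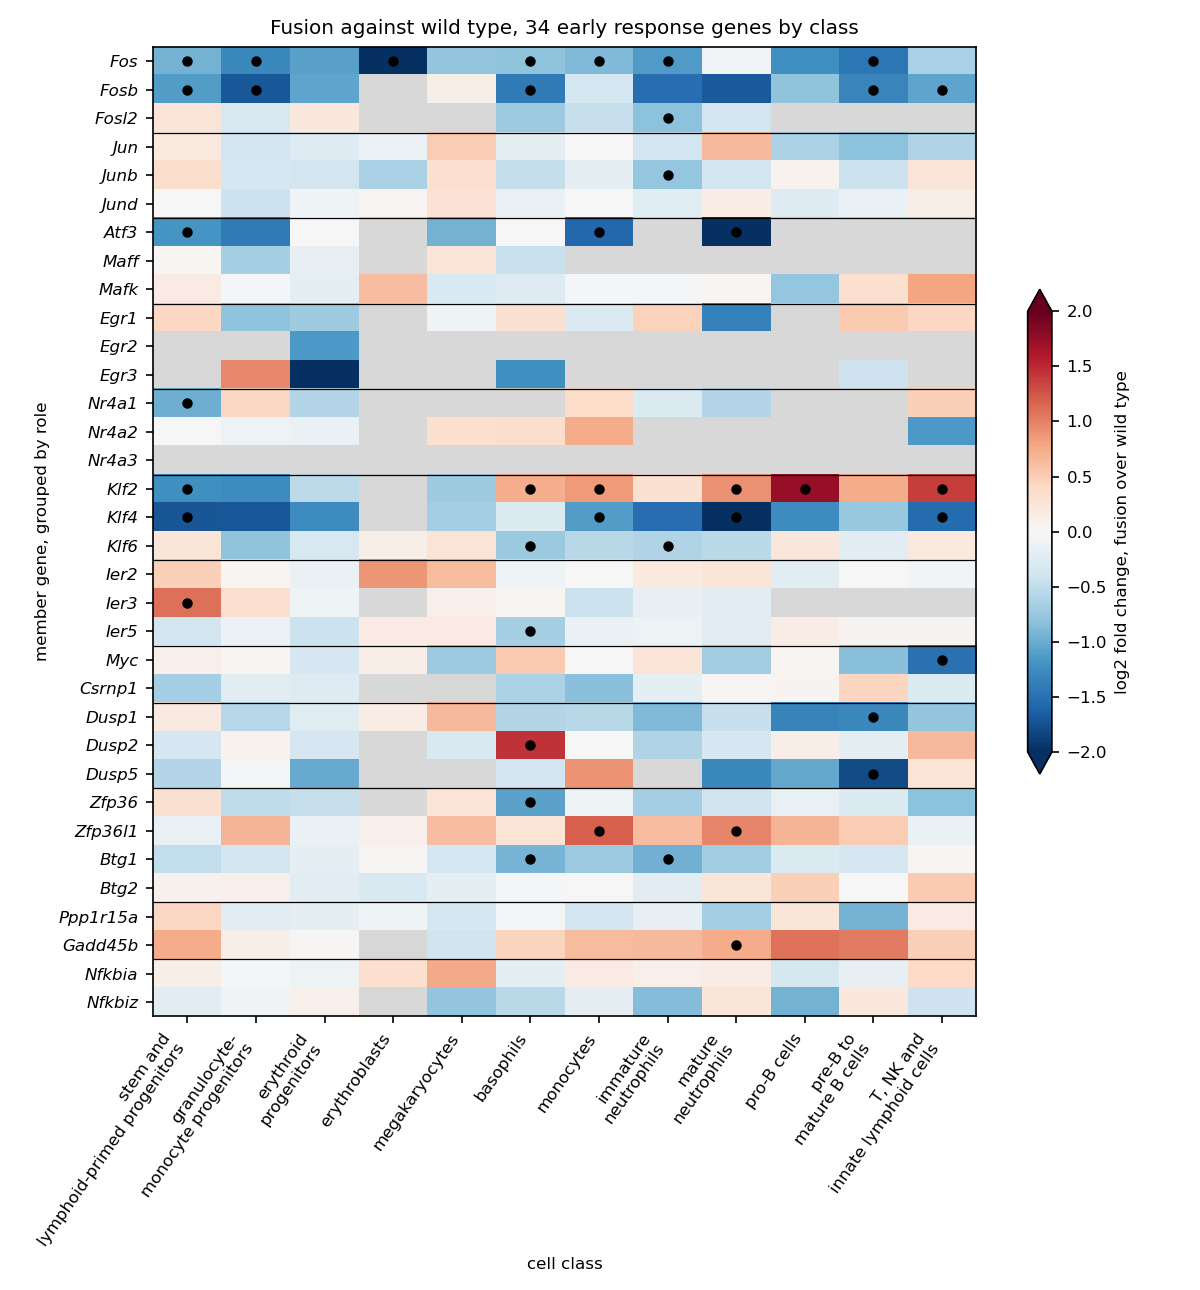
Log2 fold change (fusion over wild type, colour clipped at 2 in either direction) of the 34 genes (rows) in 12 classes (columns), with a black dot where edgeR called the gene and grey where it had too few counts to be tested. Fos, Fosb and Klf4 form rows that are mostly below 0. The Klf2 row is below 0 in stem, granulocyte-monocyte and erythroid progenitors. It is above 0 in basophils, monocytes, mature neutrophils, pro-B cells and the T, NK and innate lymphoid class.

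Stem and lymphoid-primed progenitors and basophils held the most calls. In the stem class 6 of 31 tested members fell and 1 rose (2.41% and 0.955% of all genes tested in that class), in basophils 6 of 31 fell and 2 rose (5.23% and 2.01%), and in immature neutrophils 5 of 27 fell and 0 rose (3.6% and 1.05%). In pre-B to mature B cells 4 of 26 fell and 0 rose (0.845% and 0.208%). In monocytes 3 of 30 fell and 2 rose (1.94% and 0.874%), in T, NK and innate lymphoid cells 3 of 27 fell and 1 rose (1.27% and 0.641%), and in mature neutrophils 2 of 29 fell and 3 rose (4.13% and 2.89%). Granulocyte-monocyte progenitors had 2 members that fell of 32, Fos and Fosb, and 0 that rose (0.148% and 0.0821%, or 18 and 10 of 12177 genes). In erythroblasts 1 of 15 fell and 0 rose (1.36% and 0.279%), and in pro-B cells 0 of 24 fell and 1 rose (0.365% each way). Among erythroid progenitors (33 tested, background 0.293% lower and 0.113% higher) and megakaryocytes (27 tested, 0.211% and 0.0211%) edgeR called 0 members, with 9 and 8 at an unadjusted p under 0.05. In erythroid progenitors 27 of the 33 were nevertheless below wild type in both fusion libraries and 2 above (4854 and 4896 of all 13327 genes). Their median log2 fold change was −0.26. Fos (−1.09), Fosb (−1.05) and Klf4 (−1.26) were lower there without being called. The median log2 fold change of the tested members ranged from −0.34 in mature neutrophils to 0.10 in erythroblasts, while that of all genes ran from −0.0018 to 0.014.

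The 250 bases upstream of the start site were read for the 4 genes whose values carry these results, Fos, Fosb, Klf4 and Klf2, since early response genes are known for motifs of signal-responsive factors close to their start sites. Sequences are from RefSeq on GRCm38.p6, written 5′ to 3′ on the gene's strand, and capitals mark motif matches. Only matches to fixed motif patterns within these 250 bases were sought, so variant or more distant sites would be missed. Fos (ENSMUSG00000021250, plus strand, window chr12:85473640-85473889) has a kappa B match at −214 to −205 and TATAAA at −33 to −28, counted from the start site. In Fosb (ENSMUSG00000003545, minus strand, chr7:19310046-19310295) a kappa B match lies at −188 to −179 and an Egr match at −50 to −42. Klf4 (ENSMUSG00000003032, minus strand, chr4:55532476-55532725) and Klf2 (ENSMUSG00000055148, plus strand, chr8:72318812-72319061) have 1 Egr match each, at −194 to −186 and −199 to −191.
Fos: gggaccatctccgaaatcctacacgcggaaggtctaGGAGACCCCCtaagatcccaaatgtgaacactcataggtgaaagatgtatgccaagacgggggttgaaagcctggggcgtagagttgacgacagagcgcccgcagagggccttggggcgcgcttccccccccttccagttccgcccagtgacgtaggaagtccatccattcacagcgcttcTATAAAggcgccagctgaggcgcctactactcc
Fosb: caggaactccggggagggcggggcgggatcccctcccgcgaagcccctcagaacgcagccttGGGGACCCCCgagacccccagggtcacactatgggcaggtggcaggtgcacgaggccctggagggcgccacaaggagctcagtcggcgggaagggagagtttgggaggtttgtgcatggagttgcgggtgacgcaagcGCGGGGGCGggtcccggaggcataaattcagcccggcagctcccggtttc
Klf4: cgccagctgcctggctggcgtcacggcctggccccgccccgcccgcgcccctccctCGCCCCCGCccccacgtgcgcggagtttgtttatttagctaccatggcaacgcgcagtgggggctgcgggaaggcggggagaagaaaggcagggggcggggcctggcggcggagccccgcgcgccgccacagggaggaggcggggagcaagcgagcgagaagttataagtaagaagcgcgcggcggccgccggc
Klf2: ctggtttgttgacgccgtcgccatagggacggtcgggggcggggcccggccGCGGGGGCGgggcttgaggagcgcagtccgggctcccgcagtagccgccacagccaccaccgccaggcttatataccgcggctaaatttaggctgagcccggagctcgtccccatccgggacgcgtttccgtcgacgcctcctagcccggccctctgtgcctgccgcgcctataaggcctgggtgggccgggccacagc

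Motif matches were counted on both strands in the windows of the 29 members that were matched in the RefSeq table used, out of 27025 genes with a window. Those genes were not limited to the ones expressed or tested in these libraries. The Egr site, written GCGGGGGCG or GCGTGGGCG, was found in 9 members (Dusp2, Fosb, Fosl2, Klf2, Klf4, Maff, Mafk, Nr4a1 and Zfp36), or 31.0%, and in 3.47% of all genes. A kappa B site was found in 6 (Fos, Fosb, Fosl2, Ier3, Maff and Nfkbia), 20.7% against 4.46% of all genes. The cyclic AMP response element TGACGTCA was in 4 (Btg2, Dusp1, Maff and Ppp1r15a), 13.8% against 1.77%, and the CArG box, to which serum response factor binds, in 3 (Dusp5, Egr2 and Zfp36), 10.3% against 1.62%. The AP-1 site itself, TGACTCA or TGAGTCA, matched in Csrnp1 alone (3.45% against 5.16%), and TATAAA in 5 members (17.2% against 14.3%). The Egr match stands in Fosb and Klf4, which were called only lower in the classes, and in Dusp2, called only higher. It also stands in Klf2, which was called in both directions. Whether a motif goes with the direction of change was not tested. Egr1, Egr3, Ier2, Myc and Nfkbiz were not matched.

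Members are short genes with AU-rich 3′ ends, as is known of the class. Their median length was 5292 bases with 3 exons, compared with 23242 bases and 9 exons for 13242 other tested genes, by GENCODE M21 annotation of GRCm38. The 3′ UTR was of similar length (median 1150.5 and 1112 bases), but the AU-rich motif TATTTAT occurred in that of 21 of 34 members (61.8%) against 28.9% of the other genes. Motif density was 0.826 per kilobase in members and 0.286 in the others.

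Fos, the founding partner in AP-1, was below wild type in both fusion libraries in 11 of 12 classes, and it fell in 7. Its values in fusion 1, fusion 2 and wild type were 314, 241 and 511 CPM in monocytes (the gene's UMIs per 1000000 UMIs of the class, scaled with edgeR's normalization factors). In the stem class they were 276, 166 and 425 CPM, and in basophils 286, 189.8 and 416 CPM. Both fusion libraries lay below the wild-type library in each, and fusion 2 was the lowest. The log2 fold changes were −0.88 ± 0.25 (SE) in monocytes (edgeR adjusted p = 0.0165), −0.94 ± 0.22 in the stem class (adjusted p = 0.0147) and −0.81 ± 0.21 in basophils (adjusted p = 0.0117). In granulocyte-monocyte progenitors Fos had 97.6, 87.2 and 226 CPM, a log2 fold change of −1.29 ± 0.15 with an edgeR adjusted p of 0.0353. It also fell in erythroblasts (−2.27), immature neutrophils (−1.13) and pre-B to mature B cells (−1.44). The erythroblast call rests on few cells with a Fos UMI, among 86, 116 and 81 cells of fusion 1, fusion 2 and wild type. Mature neutrophils were the exception, with 372, 331 and 366 CPM, so that the wild-type library lay between the fusion libraries (−0.06 ± 0.20, adjusted p = 0.921). Fos was highest in T, NK and innate lymphoid cells, followed by mature neutrophils, and lowest in erythroblasts. The Fos call held in 11 of 14 alternatives in the stem class, and in 8 of 14 in granulocyte-monocyte progenitors and in basophils. It held in 6 of 14 in monocytes and in immature neutrophils, with the sign reversed in 2 for the latter. In erythroblasts and in pre-B to mature B cells it held in 7 of 13. Leaving out cells with plasma cell RNA, described with the Dusp genes, removed the call in those B cells.

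Fosb, a second Fos family partner of Jun, fell in 5 classes. In basophils it had 114, 92.4 and 273 CPM in fusion 1, fusion 2 and wild type, in T, NK and innate lymphoid cells 209, 200.1 and 424 CPM, and in pre-B to mature B cells 65.4, 61.7 and 159.5 CPM. The wild-type library stood above both fusion libraries in each, by more than those differed from each other. The log2 fold change of Fosb was −1.41 ± 0.19 in basophils (edgeR adjusted p = 1.82e-06), −1.05 ± 0.27 in T, NK and innate lymphoid cells (adjusted p = 0.00833) and −1.33 ± 0.29 in pre-B to mature B cells (adjusted p = 0.000996). The call in pre-B to mature B cells was lost when cells with plasma cell RNA, described with the Dusp genes, were left out (−0.05, edgeR adjusted p = 0.992), and the value was 0.24 with the stricter cell filter. In granulocyte-monocyte progenitors, with 15.3, 10.9 and 42.2 CPM, its log2 fold change was −1.70 ± 0.19 (adjusted p = 0.0353). In the stem class, where it also fell, the value was −1.12 ± 0.26. Megakaryocytes went differently, at 68.9, 30.3 and 44.4 CPM, with the wild-type library between the others. Fosl2, a longer-lived Fos relative, was called only in immature neutrophils, at 26.0, 22.1 and 42.6 CPM (−0.82 ± 0.17, edgeR adjusted p = 0.0252), and was highest in mature neutrophils.

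Of these Fos family calls, the fall of Fosb in basophils was called in all 14 alternatives that were tested. The granulocyte-monocyte progenitor calls kept their size (from −1.21 to −1.37 for Fos and from −1.37 to −1.94 for Fosb) but lost significance in 6 and 7 of 14 alternatives, with adjusted p up to 0.193. Depth per cell in this class, 17846, 19863.5 and 21989 UMIs at the median, was highest in wild type, and 10 of 12 monocyte markers were lower in both fusion libraries, with summed levels of 1298, 1263 and 1734 CPM. Their part in the result was not tested.

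**Figure D2:**
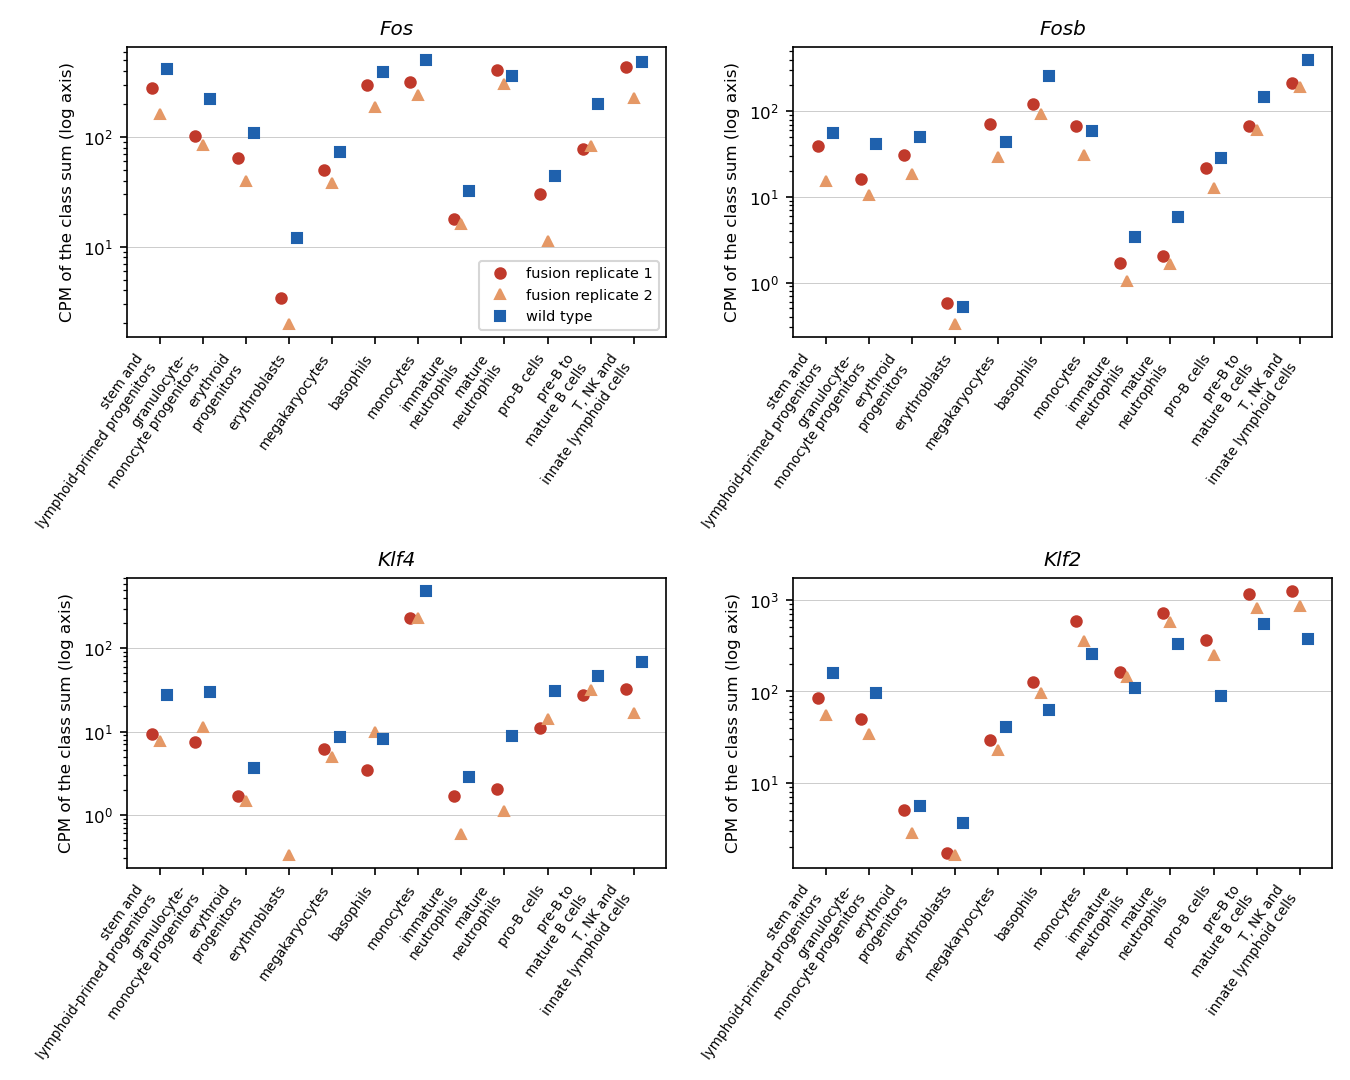
Level (CPM of the class sum, log axis) of Fos, Fosb, Klf4 and Klf2 in each class, 1 point per library. Fos, Fosb and Klf4 points of the fusion libraries lie mostly below the wild-type point, while Klf2 points of fusion lie above it from basophils, monocytes and mature neutrophils to pro-B and T, NK and innate lymphoid cells. Klf4 was 0 in erythroblasts of fusion 1 and wild type and is not drawn there.

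Of the Jun partners, Junb was called in 1 class and the other two in none. Jun itself was called in no class, with log2 fold changes from −0.81 to 0.65 over 12 classes. It was highest in basophils, at 1256, 1326 and 1481 CPM (−0.20 ± 0.22, edgeR adjusted p = 0.687), where the wild-type library was the highest. In mature neutrophils Jun stood at 183, 211 and 125 CPM, above wild type in both fusion libraries (0.65 ± 0.20, adjusted p = 0.0785). Jund, the most constitutive Jun protein, ranged from −0.43 to 0.29 and was called nowhere. Junb, which restrains Jun and proliferation, fell in immature neutrophils, with 25.0, 29.3 and 46.2 CPM (−0.77 ± 0.17, edgeR adjusted p = 0.0326), and ranged from −0.77 to 0.35 over the classes tested.

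All 5 calls in immature neutrophils were falls, of Fos (15.6, 16.7 and 35.3 CPM), Fosl2, Junb, Klf6 and Btg1, and all 5 were lost at resolutions 0.5 and 2, with the DESeq2 test and with doublets kept. Among cells that kept this class at both resolution 1 and resolution 2, 0 of the 5 were called, and Junb was higher in fusion there (0.31). The cells of this class also came from different clusters: of its 3 clusters, 1 held 670, 546 and 20 cells of fusion 1, fusion 2 and wild type, 1 held 7, 25 and 849, and 1 held 372, 315 and 313. Mature neutrophil markers summed to 210864, 312210 and 339538 CPM in the immature class, 11 of 12 being lower in both fusion libraries. The part of that list and of the clusters in the 5 calls was not tested.

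Of the AP-1 related bZIP genes, Atf3, a stress-induced partner that often represses, fell in 3 of the 7 classes in which it could be tested. Its CPM in monocytes, the class where it was highest, were 9.57, 14.8 and 36.7 in fusion 1, fusion 2 and wild type (−1.56 ± 0.28, edgeR adjusted p = 4.04e-06). In the stem class they were 8.74, 12.8 and 24.8 (−1.18 ± 0.27, adjusted p = 0.00979). In mature neutrophils they were 1.02, 0.396 and 6.44, from 6, 2 and 23 UMIs (−3.10 ± 0.64, adjusted p = 0.00743). Wild type was highest in all 3, and in monocytes by more than the fusion libraries differed. The stem class call was lost at resolution 2, where the log2 fold change was −0.12. In erythroid progenitors Atf3 was not called, at 9.27, 6.04 and 7.60 CPM. The small Maf genes Maff and Mafk, which lack an activation domain, were called in no class, with fold changes from −0.67 to 0.27 over 5 classes and from −0.77 to 0.79 over 12.

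None of the Egr genes, zinc finger factors induced by ERK and serum response factor, was called by edgeR in any class. Egr1 was highest in basophils, with 136, 134 and 109 CPM in fusion 1, fusion 2 and wild type, so both fusion libraries were above wild type (0.31 ± 0.19, adjusted p = 0.396). Over 10 classes it was below wild type in both fusion libraries in 3 and above in 4. Egr2 and Egr3 had enough counts in 1 and 4 classes only. Among the Nr4a orphan nuclear receptors, Nr4a1 (Nur77, a reporter of antigen receptor signals) fell in the stem class, at 20.1, 27.0 and 46.6 CPM, with both fusion libraries below wild type (−0.97 ± 0.21, edgeR adjusted p = 0.00549). Nr4a2 was called in none of 7 classes, and Nr4a3 had too few counts in every class.

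The Krüppel-like factors did not move together. Klf4, which drives monocyte differentiation, was below wild type in both fusion libraries in 10 of the 11 classes tested, and fell in 4. In monocytes, where it was highest, it had 225, 232 and 495 CPM in fusion 1, fusion 2 and wild type. In T, NK and innate lymphoid cells it had 31.7, 17.8 and 72.7 CPM, and in the stem class 9.12, 7.89 and 27.8 CPM. In each, the fusion libraries lay nearer to each other than to wild type, which was higher. Its log2 fold change was −1.11 ± 0.24 in monocytes (edgeR adjusted p = 0.000411), −1.54 ± 0.36 in the T, NK and innate lymphoid class (adjusted p = 0.00173) and −1.71 ± 0.26 in the stem class (adjusted p = 0.000173). It also fell in mature neutrophils (−2.51), from 1.87, 1.19 and 8.97 CPM. In granulocyte-monocyte progenitors Klf4 (7.19, 11.7 and 31.1 CPM, −1.70 ± 0.23) and Atf3 (5.35, 7.59 and 17.4 CPM, −1.41 ± 0.21) had larger log2 differences than Fos but did not pass, with edgeR adjusted p of 0.0534 and 0.0666.

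Klf2, which keeps lymphocytes quiescent and guides their exit from tissues, fell in the stem class and rose in 5 mature or committed classes. The stem class values were 82.4, 55.9 and 162 CPM (−1.23 ± 0.20, edgeR adjusted p = 0.000256), and granulocyte-monocyte progenitors were similar without passing, at 47.8, 35.7 and 99.9 CPM (−1.26 ± 0.17, adjusted p = 0.0534). Among T, NK and innate lymphoid cells the order was the opposite, with 1220, 905 and 405 CPM (1.39 ± 0.30, adjusted p = 0.000373). Mature neutrophils had 654, 626 and 339 CPM (0.92 ± 0.21, adjusted p = 0.0153). In monocytes the values were 582, 356 and 260.0 CPM (0.85 ± 0.27, adjusted p = 0.0486). Both fusion libraries lay above wild type in these 3 classes, but fusion 1 stood apart from the others in monocytes, where 12 of 14 alternatives lost the call. Klf2 also rose in pro-B cells (1.74 ± 0.26) and basophils (0.72 ± 0.19). The rise in mature neutrophils was called in all 13 alternatives that tested it, at 0.88 to 1.06. The alternative limited to clusters shared by the libraries could not test it, because those clusters held no mature neutrophils. Klf6, an injury-induced relative, fell in basophils, at 709, 496 and 1004 CPM (−0.74 ± 0.22, adjusted p = 0.0296), and in immature neutrophils, at 122, 128 and 189 CPM (−0.60 ± 0.14, adjusted p = 0.0476).

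Class make-up moved beside several of these results. Within the stem class, 9 of 10 lymphoid progenitor markers were lower in both fusion libraries, with summed levels of 2468, 2295 and 4433 CPM, none at 0. Within T, NK and innate lymphoid cells, the NK receptor gene Ncr1 had 10.8, 8.42 and 101 CPM and the T cell receptor gene Trbc1 1289, 994 and 618 CPM, while another NK gene, Nkg7, had 957, 1166 and 743 CPM. There, 5 of 16 markers of the class were lower and 8 higher in both fusion libraries. In basophils all 11 markers of the class were lower in both fusion libraries, with sums of 29177, 33092 and 59785 CPM, and the IgE receptor gene Fcer1a was at 58.6, 73.4 and 755 CPM. Within mature neutrophils, the class marker Mmp8 was higher in both fusion libraries, at 10685, 11944 and 2948 CPM. For Mmp9, S100a8 and S100a9 the wild-type library lay between them. The rest of that list was lower in both, such as Csf3r (673, 654 and 1351 CPM) and Il1b (181, 221 and 610 CPM). Monocytes of fusion 2 held more of the macrophage genes (summed 105, 213 and 130 CPM). The part of these shifts in the members' values was not tested, and fewer cells of a subtype and less RNA per cell cannot be told apart in class sums.

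The Ier genes, small short-lived early response genes, went separate ways. Ier3, a regulator of cell survival, rose in the stem class, with 142, 158 and 69.6 CPM in fusion 1, fusion 2 and wild type (1.11 ± 0.19, edgeR adjusted p = 0.00081). Both fusion libraries were above wild type, and the call was lost under the DESeq2 test only. Ier5 fell in basophils, with 50.1, 43.3 and 73.4 CPM (−0.66 ± 0.19, adjusted p = 0.0236). Ier2 was called nowhere and ranged from −0.23 to 0.88. Myc, the growth regulator, fell in the T, NK and innate lymphoid class, from 70.6 CPM in wild type to 25.3 and 24.5 CPM (−1.50 ± 0.36, edgeR adjusted p = 0.00287), while in the stem class, where it was highest, it had 231, 208 and 205 CPM. Csrnp1, a nuclear early response protein, ranged from −0.83 to 0.42 with no call.

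The MAP kinase phosphatases, which switch the inducing signal off, also differed by class. Dusp2 rose in basophils, at 58.5, 48.7 and 19.5 CPM in fusion 1, fusion 2 and wild type (1.44 ± 0.23, edgeR adjusted p = 3.96e-05). Dusp1 and Dusp5 fell in pre-B to mature B cells. Dusp1 had 32.7, 21.2 and 65.6 CPM there (−1.29 ± 0.35, adjusted p = 0.0224) and Dusp5 12.3, 15.4 and 48.3 CPM (−1.79 ± 0.47, adjusted p = 0.0165). Wild type was highest in both.

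The B cell class also held cells with plasma cell RNA, mostly in wild type. Cells with a UMI of the joining chain gene Jchain numbered 1 of 169, 3 of 161 and 21 of 375 in fusion 1, fusion 2 and wild type, and 6 plasma cell genes summed to 596, 1894 and 4126 CPM. With all Jchain-positive cells left out, an alternative added after these values were seen, Fos (−0.11), Fosb (−0.05) and Dusp1 (−0.62) were no longer called in the class, with edgeR adjusted p of 0.992, 0.992 and 0.991. Dusp5 was still called (−1.71, adjusted p = 0.0479).

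Among genes that act on mRNA or on proliferation, Zfp36 and Btg1 fell while Zfp36l1 rose. Zfp36, or tristetraprolin, which marks AU-rich mRNAs for decay, had 166.5, 168 and 352 CPM in basophils of fusion 1, fusion 2 and wild type (−1.08 ± 0.19, edgeR adjusted p = 0.000149). Its relative Zfp36l1 had 185.5, 179 and 92.2 CPM in mature neutrophils (0.98 ± 0.20, adjusted p = 0.00729) and 68.3, 72.7 and 30.9 CPM in monocytes (1.19 ± 0.23, adjusted p = 4.97e-05). The fusion libraries lay close together in both classes and stood above wild type. Btg1, an antiproliferative partner of the mRNA deadenylase, was below wild type in both fusion libraries in 10 of 12 classes. It fell in basophils, with 269, 324 and 566 CPM (−0.93 ± 0.20, adjusted p = 0.0018), and in immature neutrophils, with 81.0, 124 and 199.8 CPM (−0.96 ± 0.22, adjusted p = 0.0396). Its relative Btg2 was called nowhere (−0.30 to 0.53).

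Gadd45b, a stress gene that acts on the p38 and JNK pathways, was above wild type in both fusion libraries in 10 of 11 classes. It was called in mature neutrophils, at 98.4, 102 and 60.0 CPM (0.74 ± 0.20, edgeR adjusted p = 0.0395). Ppp1r15a (GADD34), which reverses the translation block of the stress response, was called nowhere (−0.94 to 0.41). The NF-kB feedback genes were not called either. Nfkbia, which encodes I kappa B alpha, was highest in basophils, at 421, 365 and 449.8 CPM, a difference within the spread of the libraries (−0.20 ± 0.20, adjusted p = 0.665), and Nfkbiz ranged from −0.94 to 0.24.

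Summed over the 34 genes, the cells of the 3 libraries overlapped in every class. Cells were thinned to 2000 UMIs each, which left out the 998, 395 and 654 cells of fusion 1, fusion 2 and wild type that had fewer, most of them mature neutrophils (786, 255 and 374). The median number of member UMIs per cell in granulocyte-monocyte progenitors was 4, 3 and 4 in fusion 1, fusion 2 and wild type. The means there were 4.43, 3.66 and 5.24 and the 90th percentiles 9, 8 and 11, both lower in the fusion libraries. In basophils, the class with the highest wild-type median, the median was 15, 12 and 18, and in erythroblasts 1 in each library. Both fusion libraries were below wild type in basophils, with the 10th to 90th percentiles of the cells overlapping widely (4.6 to 33, 4 to 30.3 and 6 to 35.7). In the T, NK and innate lymphoid class the wild-type median of 10 was below 14 and 13, yet its 90th percentile of 49.2 was above 38 and 30.5.

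**Figure D3:**
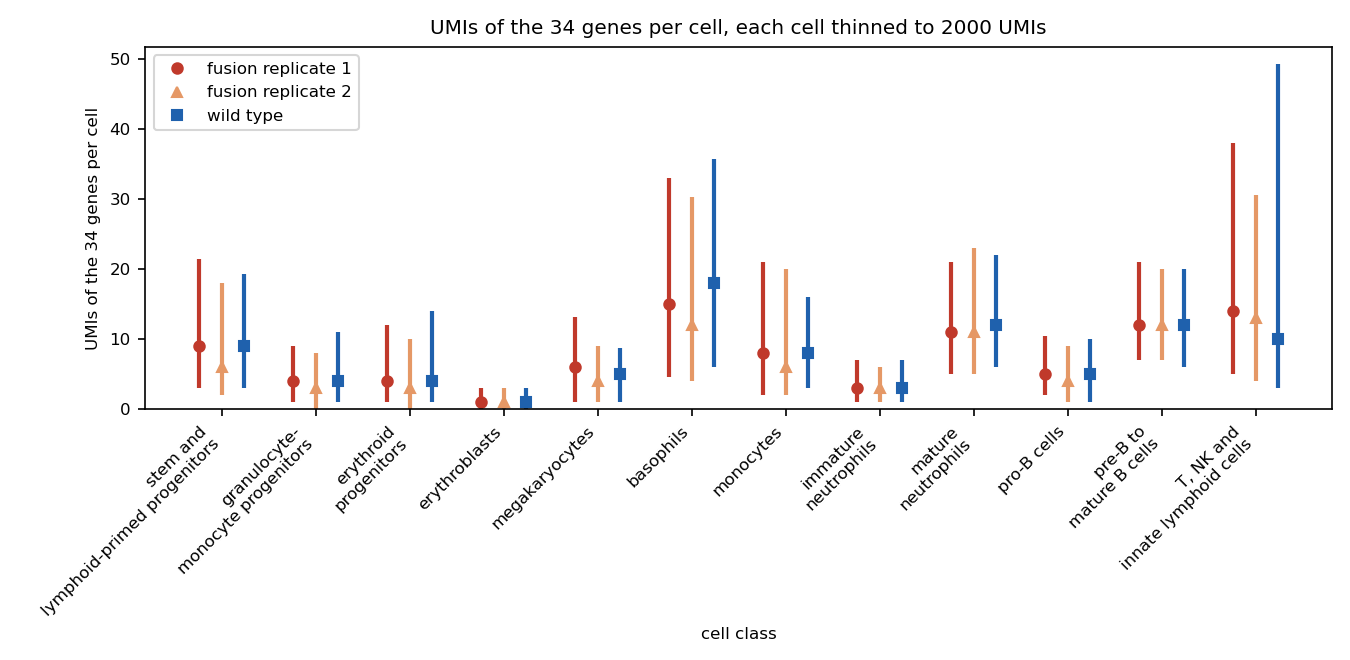
Summed UMIs of the 34 genes per cell thinned to 2000 UMIs (cells with fewer left out), by class and library (points are medians over cells, bars the 10th to 90th percentile). The 3 libraries overlap in every class, and basophils of wild type have the highest median, 18.

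Fewer granulocyte-monocyte progenitors of the fusion libraries had a Fos UMI. Of thinned cells, 14.7% (exact 95% interval 12.0 to 17.9), 12.4% (10.1 to 15.1) and 29.1% (26.4 to 31.9) had a Fos UMI in fusion 1, fusion 2 and wild type, and 3.77%, 1.86% and 7.99% a Fosb UMI. Intervals of the fusion libraries overlapped each other and not that of wild type for Fos, and they cover counting error only. In erythroblasts, taken as a class that should have little Fos, the shares were 1.27%, 0% (0 of 113 cells, upper bound 3.21%) and 1.32%, with median depths of 22192, 24799 and 23936 UMIs. Without thinning the Fos shares were 53.6%, 48.2% and 69.0% in the progenitors and 5.81%, 2.59% and 14.8% in erythroblasts. Erythroblasts numbered 86, 116 and 81 cells, so the Fos fall called in that class rests on few cells. In mature neutrophils, with 1261 of 2047, 1338 of 1593 and 934 of 1308 cells deep enough, the thinned Fos shares were 41.6%, 38.8% and 42.0%, and the Klf2 shares were 70.5%, 67.0% and 45.5%, higher in both fusion libraries. At 1000 UMIs per cell, where no cell was left out, the Klf2 shares in this class were 50.5%, 45.4% and 28.9% and the Fos shares 34.4%, 26.2% and 29.7%.

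Whole-marrow levels depended strongly on which cells were present. In the sum of all cells 15 of 34 members fell and 0 rose (11.8% and 3.96% of 15471 genes), with Klf4 (11.6, 14.0 and 51.9 CPM), Fosb (28.6, 18.6 and 61.2 CPM) and Fos (106, 78.8 and 221 CPM) lower in both fusion libraries. To separate class shares from level within classes, each member was recomputed with every class of a fusion library set to its wild-type share of UMIs. The log2 difference of Fos was −1.27 as measured and −0.90 at wild-type shares, and that of Fosb −1.37 and −1.12. Klf4 went from −2.03 to −1.04. Dusp5 (−1.29 to −0.21), Nr4a1 (−0.98 to −0.10), Dusp2 (−0.83 to −0.04) and Egr3 (−1.28 to −0.29) came closer to 0. Wild-type levels mixed at fusion shares alone gave −0.99 for Dusp5, −0.73 for Dusp2 and −0.42 for Fos. Klf2 changed sign, from −0.24 as measured to 0.38 at wild-type shares, and Gadd45b went from 0.00 to 0.54.

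**Figure D4:**
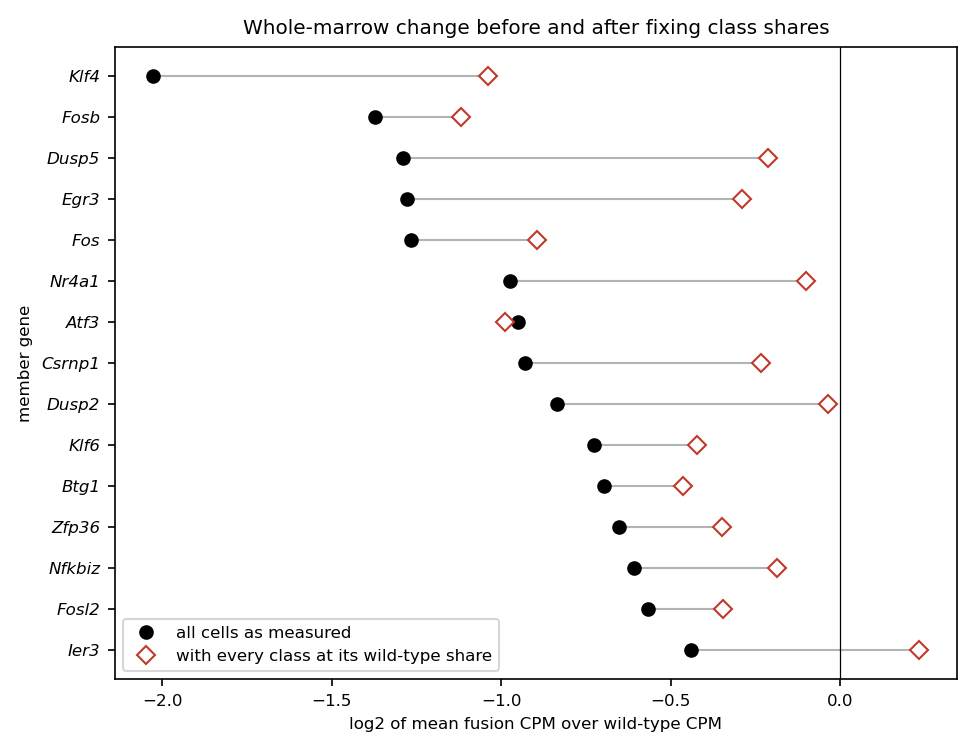
Log2 difference (fusion over wild type) in the sum of all cells for the 15 members called there, as measured (filled) and with every class at its wild-type share of UMIs (open diamonds). Fos, Fosb and Atf3 keep most of their difference, Klf4 goes from −2.03 to −1.04, and Dusp5, Dusp2, Nr4a1 and Egr3 come close to 0.

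Whether a member's fold differed between classes was tested directly against granulocyte-monocyte progenitors, with library as a block (edgeR quasi-likelihood test of the class by genotype term). The 3 such comparisons share the progenitor sums. Between mature neutrophils and these progenitors, 5 of 31 members differed (4.92% of 12080 genes). Klf2 differed by 2.22 ± 0.21 on the log2 scale, Fos by 1.27 ± 0.20, Jun by 1.06 ± 0.21 and Jund by 0.63 ± 0.20, all toward higher values in fusion neutrophils, and Dusp5 by −1.23 ± 0.39. For Fos this is the difference between −0.06 in neutrophils and −1.29 in progenitors. The Dusp5 difference was not called with no gene filter or at resolution 2, and that of Jund was not called with DESeq2 size factors. The mature neutrophil cells of the groups came from different clusters, and whether this bears on these differences was not tested.

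In erythroid progenitors, 6 of 32 members differed in fold from granulocyte-monocyte progenitors (2.8% of 13309 genes). Atf3 (1.39 ± 0.22), Klf2 (0.73 ± 0.18), Fosb (0.63 ± 0.14), Klf6 (0.50 ± 0.11) and Jund (0.37 ± 0.09) were less reduced or unreduced in the erythroid cells. Zfp36l1 (−0.82 ± 0.14) was 0.68 in granulocyte-monocyte progenitors and −0.14 in erythroid progenitors, neither of them called. In monocytes, 6 of 31 members differed (1.69% of 12046 genes): Klf2 (2.06 ± 0.11), Fosb (1.30 ± 0.20), Klf4 (0.55 ± 0.14), Jund (0.43 ± 0.10), Fos (0.38 ± 0.10) and Btg1 (−0.38 ± 0.11). Fosb was thus −0.34 in monocytes but −1.70 in the progenitors. With no filter on low counts, 2 of these monocyte differences were called, those of Fosb and Klf2. At resolution 2 the Klf2 difference in erythroid progenitors and those of Klf4 and Btg1 in monocytes were not called.

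Genes upstream of and beside the members were read from further lists. The 19 kinases and factors that switch early genes on gave 3 falls and 3 rises in 215 tested pairs, against the background of 1.83% and 0.795% above. Rps6ka3 (81.3, 92.9 and 161 CPM in basophils, −0.88 ± 0.18) and Mrtfa (29.9, 32.9 and 57.4 CPM, −0.86 ± 0.21), a kinase downstream of ERK and a coactivator of serum response factor, fell in basophils. Rps6ka1, another kinase downstream of ERK, rose in mature neutrophils (188, 216 and 106 CPM, 0.93 ± 0.21). Mapk3, which encodes ERK1, fell in basophils (60.5, 53.2 and 85.4 CPM, −0.60 ± 0.18). The 14 remaining AP-1 and small Maf genes gave 4 falls and 0 rises in 103 pairs, of Bach2, Maf (in 2 classes) and Batf, all at low levels.

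Other early response genes, 36 in number, gave 19 falls and 11 rises in 317 pairs, against 1.83% and 0.795% of all pairs. Klf9, a glucocorticoid-induced Krüppel-like factor, had 74.9, 68.9 and 8.69 CPM in mature neutrophils, a rise of 3.05 ± 0.27 that set both fusion libraries far above wild type. Plk3, a stress kinase, went the other way in the same cells (10.0, 11.3 and 46.0 CPM, −2.11 ± 0.24). Trib1, a pseudokinase, had 10.2, 19.3 and 47.4 CPM in pre-B to mature B cells (−1.66 ± 0.46), and Id3, an inhibitor of helix-loop-helix factors, had 48.5, 33.4 and 13.3 CPM in the T, NK and innate lymphoid class (1.62 ± 0.48).

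The NF-kB list of 21 subunits and targets gave 17 falls and 0 rises in 198 pairs (1.83% and 0.795% of all pairs). Those that moved were targets: Ccl4, a chemokine, had 6.48, 6.31 and 47.3 CPM in megakaryocytes (−2.88 ± 0.32), and Ptgs2, the inducible cyclooxygenase, had 13.7, 14.4 and 89.0 CPM in basophils (−2.65 ± 0.22) and 9.51, 9.70 and 57.7 CPM in mature neutrophils (−2.59 ± 0.23). Ccl3, another chemokine, had 9.57, 15.8 and 52.9 CPM in monocytes (−2.02 ± 0.26). Many of the 17 falls were of Ccl3 or Ccl4, in basophils, megakaryocytes, monocytes, mature neutrophils and pro-B cells. Ccl4 was far higher in basophils, at 2293, 1564 and 3718 CPM. Basophils were 2.58%, 3.76% and 8.05% of the cells of fusion 1, fusion 2 and wild type. Whether basophil RNA reached the sums of other classes was not tested. Of 14 heat shock genes, which cells also raise under stress, 0 fell and 1 rose in 144 pairs, Hspa5 in immature neutrophils (427, 397 and 197 CPM, 1.07 ± 0.17). The summed heat shock level in granulocyte-monocyte progenitors was 11000, 10070 and 10920 CPM, with wild type between the fusion libraries.

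Lists for cells that the classes could hold as admixture were read in the same way, beside the same 1.83% lower and 0.795% higher of all pairs. The 10 macrophage genes gave 2 falls and 4 rises in 30 pairs, among them Vcam1 in immature neutrophils (25.2, 27.5 and 15.04 CPM, 0.81 ± 0.18). The other 3 rises were C1qa, C1qb and C1qc in monocytes, all highest in fusion 2: C1qa had 3.48, 28.6 and 4.31 CPM and C1qc 2.61, 20.9 and 3.40 CPM, so fusion 1 was below wild type in both, and C1qb had 6.96, 23.6 and 3.40 CPM. The 12 stroma and endothelium genes gave 2 falls and 1 rise in 18 pairs, with Pecam1 lower in the stem class (81.7, 66.4 and 120.4 CPM, −0.70 ± 0.18). The 6 plasma cell genes gave 9 falls and 0 rises in 34 pairs, with Jchain at 2.11, 0 and 143 CPM in the T, NK and innate lymphoid class and Sdc1 at 16.7, 7.56 and 40.4 CPM in the stem class (−1.76 ± 0.27). With Jchain-positive cells left out, the calls of Fosb, Klf2, Klf4 and Myc in the T, NK and innate lymphoid class and of Fos and Klf4 in the stem class were kept, while that of Fosb in the stem class was lost. Also lost were the calls of Fos, Klf2, Klf6 and Ier5 in basophils, of Fos and Fosb in granulocyte-monocyte progenitors, of Klf2 in monocytes and of Fos in erythroblasts. The log2 fold changes of these lost calls stayed near their values above, for example −1.25 and −1.68 for Fos and Fosb in granulocyte-monocyte progenitors and −0.86 for Fos in basophils. Calls over all genes fell as well, from 529 to 237 lower in basophils and from 18 to 5 in granulocyte-monocyte progenitors.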

How the data were processed

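Single-cell RNA was measured in 3 bone marrow libraries, 2 fusion and 1 wild type. The authors deposited unnormalized UMI counts for each barcode and gene. The submitters' processing notes name Cell Ranger 5.0.1, bcl2fastq 2.20.0.422 and the build GRCm38, and the file headers name version 5.0.0. The 3 libraries held 97192347, 111836603 and 93262028 UMIs in fusion 1, fusion 2 and wild type.

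A barcode was analysed if it had 1000 or more UMIs, 400 or more genes and no more than 10% mitochondrial UMIs, and 225, 318 and 194 predicted doublets were removed (scrublet in scanpy 1.11.5, expected rate 0.06). Cells were clustered without integration on 2000 variable genes that excluded the 34 members, with 30 components, 15 neighbours and Leiden resolution 1 (leidenalg 0.10.2), which gave 27 clusters. A cluster took the best-scoring of 15 marker lists if at least 3 of its genes were detected in 10% of its cells. The stem and lymphoid lists were joined, and clusters led by genes of another class renamed (neutrophils) or left unnamed, after the clusters were seen; plasmacytoid dendritic cells and unnamed cells were not tested. Class names stand for cells resembling that type.

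Counts were summed per library and class and tested with edgeR 4.0.16 (R 4.3.3; filterByExpr, TMM normalization, quasi-likelihood test, genotype only, Benjamini-Hochberg adjustment over all genes of a class). The fit has 1 residual degree of freedom, so each gene's spread is drawn toward that of other genes. It assumes that the wild-type library varies like the fusion libraries. The SEs were derived from the coefficient and the F statistic. An exact permutation test over the 3 labellings could not go below 0.333. DESeq2 1.42.0 was an alternative. The fit was also run on simulated counts with known changes. Those counts were given the same spread in every gene and library. That run therefore cannot check the assumption made about the wild-type library. Replicate numbers were given in accession order and pair nothing. Plain CPM are not TMM-scaled; they are used for marker sums, for the highest and lowest classes and in the plot by class.

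The members and the gene lists were chosen with earlier results of these data known. Values in every library are given where edgeR called a member (the 3 highest classes where there were more than 3), for the highest member of a role group with no call, for the 5 largest differences in granulocyte-monocyte progenitors, and for up to 4 called genes with a mean of at least 20 CPM in each other list; genes named beyond this rule were chosen after their values were seen. Promoter windows are from RefSeq (GRCm38.p6) and gene models from GENCODE M21.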

Additional observations from a re-analysis of the deposited data

Results flagged for a closer look

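Fold changes that differed between classes by a direct test of the difference (edgeR class by genotype term, Benjamini-Hochberg adjusted p under 0.05) were set apart for a closer look. Between mature neutrophils and granulocyte-monocyte progenitors these were Klf2 (2.22 on the log2 scale), Fos (1.27), Jun (1.06), Jund (0.63) and Dusp5 (−1.23). Between erythroid progenitors and granulocyte-monocyte progenitors they were Atf3 (1.39), Klf2 (0.73), Fosb (0.63), Klf6 (0.50), Jund (0.37) and Zfp36l1 (−0.82). Between monocytes and granulocyte-monocyte progenitors they were Klf2 (2.06), Fosb (1.30), Klf4 (0.55), Jund (0.43), Fos (0.38) and Btg1 (−0.38). Several were lost in at least some alternatives. They were Dusp5 and Jund in mature neutrophils, Klf2 in erythroid progenitors, and Klf4, Jund, Fos and Btg1 in monocytes.

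Klf2 was called in opposite directions in different classes, with both fusion libraries on the same side of wild type each time. It was lower in the stem and lymphoid-primed class (−1.23) and higher in basophils (0.72), monocytes (0.85), mature neutrophils (0.92), pro-B cells (1.74) and the T, NK and innate lymphoid class (1.39). The difference between the stem class and these others was not tested.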

How the results depend on the processing

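No paired analysis was possible because the groups share 1 replicate number, which was given in accession order. Leaving out a fusion library leaves 1 library against 1 with no residual degrees of freedom, so it gives values with no test. The 32 pairs lower in fusion became 6 with the DESeq2 test and 16 with thinned cells. The 10 pairs higher became 2 with the DESeq2 test and 6 in clusters shared by the libraries, which hold no mature neutrophils, so that the 3 rises of that class were not tested there. In all cells, 15 members called became 7 with thinned cells. The 6 monocyte differences in fold became 2 with no gene filter. The fusion share of progenitors with a Fos UMI over that of wild type went from 0.467 to 0.408 at 1000 UMIs per cell and 0.738 without thinning.

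Class medians of the members' log2 fold changes moved by more than the SD of the 2 fusion libraries' own medians as follows. In granulocyte-monocyte progenitors (−0.229) these medians nearly coincided (SD 0.0003), so even shifts too small to matter are listed, and every value stayed between −0.298 and −0.184: DESeq2 size factors −0.229, no gene filter −0.234, DESeq2 test −0.228, equal cells −0.200, members kept among the variable genes −0.227, resolution 0.5 −0.257, resolution 2 −0.234, wild-type classes −0.298, doublets kept −0.256, stricter cell filter −0.267, cells thinned −0.265, same class at resolutions 1 and 2 −0.230, Jchain-positive cells left out −0.225, and −0.219 to −0.184 with 1 fusion library left out. Erythroblasts (0.10): no gene filter 0.041, DESeq2 test 0.083, equal cells 0.037, members kept 0.126, resolution 0.5 −0.151, wild-type classes −0.183, doublets kept 0.054, stricter filter −0.014, thinned −0.168, Jchain-positive cells left out 0.056, and −0.0155 to −0.0003 with 1 fusion library left out. Megakaryocytes (0.096): −0.354 to 0.22 with 1 left out. Basophils (−0.25): no gene filter −0.352, equal cells −0.295, doublets kept −0.434. Monocytes (−0.12): members kept −0.021, wild-type classes 0.046, doublets kept −0.256, stricter filter −0.0206, thinned 0.116, shared clusters −0.345, and −0.232 to −0.143 with 1 left out. Immature neutrophils (−0.24): members kept 0.057, resolution 0.5 −0.029, resolution 2 0.056, wild-type classes −0.017, doublets kept 0.0595, same class at both resolutions 0.0557, shared clusters −0.064. Mature neutrophils (−0.34): members kept 0.045, resolution 0.5 −0.056, resolution 2 0.072, wild-type classes −0.036, doublets kept 0.0019, thinned −0.084, and −0.294 to −0.154 with 1 left out. Pre-B to mature B cells (−0.19): no gene filter −0.302, equal cells −0.042, resolution 2 0.076, doublets kept −0.277, stricter filter 0.030, thinned −0.122, same class at both resolutions −0.123, Jchain-positive cells left out −0.062.

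Single calls that changed sign were, in immature neutrophils, Fos with members kept among the variable genes (0.064) and with doublets kept (0.078), Fosl2 with doublets kept (0.014), and Junb at resolution 0.5 (0.021), at resolution 2 (0.31), with wild-type classes (0.148), with doublets kept (0.343), with the same class at both resolutions (0.3097) and in shared clusters (0.032). In pre-B to mature B cells they were Fosb with the stricter filter (0.236) and Dusp1 with equal cells (0.181). The causes were not tested. Pairs called in all alternatives that tested them were 3: Fosb in basophils, and Klf2 and Zfp36l1 in mature neutrophils. Shared clusters held no mature neutrophils, so Klf2 and Zfp36l1 were not tested there in that class. The alternatives named same class, shared clusters and Jchain-positive cells were added after seeing the data.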
